A study of Oryza sativa with 2 samples.

Results

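The rice array examined here carries oligonucleotide probes for microRNA loci beside its probes for ordinary transcripts. Those described are for the microRNA families left after a list of mostly conserved ones was set aside. Members were all probes whose name begins with osa-miR and whose family number is none of a list of 22, mostly conserved, families (such as miR156, miR166 or miR399). This gave 105 probes among 41044 that were not controls, for 35 loci of 23 families. Each locus had 3 probes, 1 each of the types named Mature, 5'seq and 3'seq. Each probe was printed as 2 spots per array. The probe names give a chromosome for each locus and no coordinates, so chromosomes below are those of the names.

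Plant microRNAs are cut from hairpins within longer, capped and polyadenylated primary transcripts, and the short mature strand guides the cleavage or repression of matching mRNAs. Grasses hold families that are not shared with other plants, beside conserved ones, and many of these young families are present at low levels or in few tissues. Several early entries of the rice list, among them those first proposed by computer comparison of the Arabidopsis and rice genomes, have since been questioned as true microRNAs. Low-input labelling kits of the kind named in the labels copy RNA from a primer on the poly(A) tail, which primary transcripts carry and mature microRNAs do not.

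The RNA came from root hairs of rice seedlings (cultivar label Don-gin) after 3 days on MSO medium, with hairs rubbed off frozen seminal roots, and 100 ng was labelled with Cy3 for each of 2 one-colour arrays. Both belong to 1 group, titled "07g39940 over", called sample 1 and sample 2 here, and no control group was analysed. The labels do not say what "over" stands for, or whether the 2 samples are separate lines, batches of plants or repeats of 1 preparation, so their spread may be technical. Signals are the scanner software's background-subtracted Cy3 intensities in arbitrary units, given as geometric means over the spots of a probe. The 75th percentile of all spots that were not controls was 2725 in sample 1 and 2772 in sample 2, and 0 member spots were saturated.

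Of the listed marker loci, 5 of 6 for root hair growth and 2 of 5 for stele and endodermis were well above background on both arrays. Over all probes that were not controls the share was 82.4%, so the root hair count alone does not check the tissue label. Signals of the root hair loci ran from 6.34 to 148700 in sample 1 and from 11.9 to 128800 in sample 2. Those of the stele and endodermis loci ran from 1.93 to 137.8 and from 1.78 to 109.9. Signals of 6 seed storage loci ran from 392.6 to 3316 in sample 1 and from 1.96 to 39.1 in sample 2, and those of 5 photosynthesis loci from 4.65 to 22.4 and from 24.0 to 191. The samples thus differed in RNA typical of other tissues, and the part of this in the member signals was not tested.

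Fewer than 50% of the member probes were called on both arrays, where a probe was called if the software marked at least 50% of its spots as well above background. The count was 49 of 105 probes (46.7%), against 82.4% of all probes that were not controls. With the positive-and-significant call of the same software it was 66 of 105, more than 50%, against 91.7% of all probes. The array also holds 12 control probes named as random sequence, and 5 of these (41.7%) met the well-above-background rule in both samples. Exact binomial 95% intervals were 36.9% to 56.7% for the members and 15.2% to 72.3% for the random-sequence probes, and they treat probes as independent, although loci of a family share sequence. The 2 intervals overlapped, and that of the 12 random-sequence probes was wide. Of 12 control probes named as artificial, 1 was called on both arrays (8.33%, interval 0.21% to 38.5%). No test of a difference between these shares was run. A further 4 members were called only in sample 2 and 1 only in sample 1, and 51 were called in neither sample.

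The random-sequence probes set a second limit. The highest of them read 44.0 in sample 1 and 49.9 in sample 2. The limit thus rests on 1 probe, with 7 of its 10 spots left after outlier flags. The next highest random-sequence signal was 35.3 in sample 1 and 35.1 in sample 2. Above the limit on both arrays lay 16 of the 105 members (15.2%), against 67.1% of all probes that were not controls. Of 24 control probes named as genome, 8 were called on both arrays (33.3%) and 3 (12.5%) lay above this limit. The highest of these read 1706 in sample 1 and 1750 in sample 2. The other 33 members called on both arrays had signals from 10.1 to 51.3 in sample 1 and from 7.98 to 48.7 in sample 2. Random-sequence probes with the same call spanned 18.0 to 44.0 and 21.3 to 49.9. These 33 members lay in or below that range, except the Mature probe of miR535 in sample 1. Members called in neither sample ran from 1.52 to 7.30 (median 1.88) in sample 1 and from 1.47 to 7.18 (median 1.84) in sample 2. Medians for negative control spots were 1.81 and 1.74. All 4 spots of each of the 16 members exceeded the limit.

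The 16 members above the limit belonged to 8 families and 11 loci. These families were miR414, miR419, miR440, miR441, miR442, miR446, miR529 and miR531. By type they were 4 Mature, 9 5'seq and 3 3'seq probes. Only miR414 had all 3 probe types above the limit, and 24 of 35 loci had none.

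Of the families with a known role in rice, miR529 alone had probes above the limit on both arrays. This family pairs with mRNAs of SPL transcription factors, which shape shoots and panicles. Its Mature probe (chromosome 2) read 9998 in sample 1 and 8471 in sample 2, with spots at 9740 and 10260 and at 8302 and 8643. Sample 1 was higher on both of its spots, by 1.20-fold after scaling. The 5'seq probe of the same locus read 63.5 and 67.6, and the 3'seq probe 26.3 and 26.3 from 1 spot each. Both samples gave the same calls at this locus, with the Mature and 5'seq probes above the limit and the 3'seq probe below it.

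miR535, which also pairs with SPL mRNAs, was called on both arrays by all 3 of its probes (chromosome 11), and none of them was above the limit on both. The Mature probe read 51.3 in sample 1, above the limit there, and 48.7 in sample 2, just below it. Its 5'seq probe read 17.7 and 19.5 and its 3'seq probe 33.9 and 34.8. miR530, a repressor of grain yield in rice, was likewise called by all 3 probes (chromosome 4) at signals that random-sequence probes also reached. Its Mature probe read 14.4 and 11.6, its 5'seq probe 10.1 and 10.9, and its 3'seq probe 37.2 and 34.6. The order of the samples differed between probes of miR535 and of miR530, and no probe of either was 2-fold apart. Another 9 of the 12 families listed for a role, such as miR444, had no probe among the members.

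miR531 was probed at loci named for chromosomes 8 and 11, and both loci gave the same pattern. The Mature probes read 712.5 and 707.9 for the chromosome 8 locus, and 750.9 and 709.8 for the chromosome 11 locus, the latter from 1 spot per array. The 5'seq probes read 131 and 121 for chromosome 8 and 150.4 and 131 for chromosome 11. Both 3'seq probes sat at the floor, with signals from 1.70 to 2.13. In the files, the 5'seq and 3'seq probes of both loci carry 1 shared sequence name, and both Mature probes the name osa-miR531. The 2 loci may therefore not be told apart by any of these probes. High Mature and 5'seq signals beside a 3'seq probe at the floor were seen with the probes named for both loci and in both samples.

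miR414 is a family whose listed mature sequence is largely a short repeat. Its Mature probe (chromosome 11) read 1376 in sample 1 and 1389 in sample 2, its 5'seq probe 773.8 and 782.7 and its 3'seq probe 79.8 and 78.6. The 2 samples differed by at most 0.05 on the log2 scale at each of these 3 probes. Pairing of this probe with other transcripts was not tested.

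At 5 other families a 5'seq or 3'seq probe was above the limit while no Mature probe was called on both arrays. The 5'seq probe of miR419 (chromosome 12) read 4276 in sample 1 and 3663 in sample 2. The 3'seq probe of that locus read 11.4 and 10.7. Its Mature probe was uncalled in sample 1 (1.55), and in sample 2 its spots disagreed, at 46.4 and 2.75. High signal at this locus was therefore seen with 1 probe type in both samples.

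Within miR441 the bright probe was not of the same type at all 3 loci. On chromosome 7 (miR441b) it was the 5'seq probe, at 908.9 and 886.6, and on chromosome 1 (miR441c) it was also the 5'seq probe, at 307 and 324. On chromosome 3 (miR441a) it was the 3'seq probe, at 109.4 and 108.2. All 3 Mature probes of miR441 were uncalled, at 2.32 or less. The 5'seq probe of miR441a and the 3'seq probe of miR441b were also at the floor (1.85 to 1.91).

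Single bright probes were also found for miR442, miR440 and miR446. The 3'seq probe of miR442 (chromosome 4) read 285 and 269. The 5'seq probe of miR440 (chromosome 11) read 160.2 and 189.6, with the widest gap between spots among the 16 (135.7 and 189.2 in sample 1). The 5'seq probe of miR446 (chromosome 6) read 63.7 and 58.1. The 3'seq probe of miR446 is named in the files for transcript Os12g0234000. It was uncalled in both samples (6.78 and 4.98), while an mRNA probe of that transcript read 1190 and 1254. The Mature probes of these 3 families read from 1.83 to 3.21 in both samples and received no call.

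The members nearest to the limit show how narrow it was. Just above it lay the 5'seq probes of miR446 and miR529 and the 3'seq probe of miR414. Just below it were the Mature probe of miR535, the 5'seq probe of miR418 (chromosome 2, 43.3 and 44.5) and the 5'seq probe of miR439e (chromosome 8, 41.2 and 44.5 from 1 spot each). The second spot of the miR439e probe, left out for an outlier flag, read 111.6 in sample 1 and 9.84 in sample 2. The authors' deposited table marks 19 members present by at least 1 spot, which are the 16 above the limit and these last 3.

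miR439, the family with most loci, was called only by 5'seq and 3'seq probes. Its 9 loci were named for 7 chromosomes. All 9 Mature probes were uncalled, with signals from 1.54 to 1.93. The 5'seq probes were called on both arrays at 6 of 9 loci and the 3'seq probes at 8 of 9. The 5'seq probes had a median signal of 11.9 and 13.2 in the 2 samples, and the 3'seq probes 13.5 and 11.54. None of the 27 probes was above the random-sequence limit. The 5'seq and 3'seq probes of 7 of these loci, spread over 6 chromosomes, share the name of 1 transcript, Os01g0540800. Of those 14 probes 11 were called on both arrays. The array's own mRNA probe for that transcript read 504.5 and 586.0, above the limit in both samples.

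In the other families no probe was above the limit on both arrays. No probe of the families miR413, miR417, miR420, miR426, miR438 or miR443 was called on both arrays, and for miR420 all 6 signals lay between 1.64 and 1.99. miR415 (chromosome 12) was called by all 3 probes, at 41.1 and 33.3 for Mature, 22.3 and 18.8 for 5'seq and 11.1 and 12.5 for 3'seq. miR416 was called by its 3'seq probe (36.25 and 38.0), miR418 by its 5'seq probe and miR437 by its 5'seq probe (11.1 and 7.98). miR435 was called by 5'seq (15.8 and 16.2) and 3'seq (17.1 and 18.6). At miR445, the 3'seq probe of miR445a and the 5'seq probe of miR445d were called, both from 1 spot per array.

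Probe types differed in how often they were called. Among members, 7 of 35 Mature probes (20%) were called on both arrays, against 22 of 35 5'seq probes (62.9%) and 20 of 35 3'seq probes (57.1%). The 405 probes for the other microRNA families of the array gave 61.5% for Mature, 62.2% for 5'seq and 62.2% for 3'seq probes. Above the random-sequence limit were 11.4% of Mature, 25.7% of 5'seq and 8.57% of 3'seq members, against 17.8%, 25.9% and 23.0% of the other microRNA probes. No test was run on these shares. With the software's more lenient positive-and-significant call the member shares were 40% for Mature and 74.3% for both 5'seq and 3'seq probes. The 9 miR439 probes of each type weigh on these shares. Without them 7 of 26 Mature probes (26.9%), 16 of 26 5'seq (61.5%) and 12 of 26 3'seq probes (46.2%) were called. Counted by family, a Mature probe was called in 6 of 23 families, a 5'seq probe in 15 and a 3'seq probe in 12.

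The called Mature probes were unevenly spread over the family numbers, a division chosen after the values were seen. All 5 Mature probes of the 4 families miR529, miR530, miR531 and miR535 were called on both arrays, 2 of them for miR531. Among the other 19 families 2 of 30 Mature probes (6.67%) were called, namely miR414 and miR415. Above the random-sequence limit on both arrays were 3 of the 5 Mature probes and 1 of the 30. For 5'seq probes the counts were 5 of 5 and 17 of 30 (56.7%), and for 3'seq probes 3 of 5 and 17 of 30 (56.7%). Over all types 13 of 15 probes (86.7%) were called in those 4 families and 36 of 90 (40%) in the others. The share over all probes that were not controls was 82.4%.

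Within a locus, the probe types often disagreed. Of 35 loci, 5 were called by all 3 types, 10 by 2 types, 14 by 1 type and 6 by none. All 7 loci with a called Mature probe also had a called 5'seq probe, and 5 of the 7 a called 3'seq probe. At 22 loci a 5'seq or 3'seq probe was called and the Mature probe was not. The 5'seq and 3'seq probes were called together at 13 loci, 5'seq without 3'seq at 9 and 3'seq without 5'seq at 7. Of the 49 called members, 33 were not above the random-sequence limit. The same call was met by 41.7% of random-sequence probes and 82.4% of all probes that were not controls. Whether the types were called together more often than unrelated probes would be was not tested.

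Of the 70 5'seq and 3'seq probes, 27 carry the name of a transcript or another sequence entry in the files in place of the microRNA's own. These 27 were called on both arrays at 59.3% and the other 43 at 60.5%, and 2 and 10 of them were above the limit. The 2 were the 5'seq probes of miR531.

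Between the 2 samples most member signals differed little. The log2 difference was taken as sample 2 minus sample 1, scaled to the 75th percentile. Over the 49 members called on both arrays its median was -0.06, with an SD of 0.26 across probes. Over all probes that were not controls and were called on both arrays the median was 0.03 and the SD 0.43. The median absolute difference was nearly the same in the 2 sets, 0.106 for the members and 0.109 for all probes. The larger SD goes with a wider range, from -6.97 to 4.15 over all probes and from -1.18 to 0.24 over the members. Sample 2 was higher at 15 of the 49 and lower at 34. This split became 4 and 45 with median scaling, 2 and 47 with quantile normalization and 3 and 46 in the authors' deposited table. It thus depended on the processing, which also moved the median of all called probes, from 0.03 to -0.06, -0.02 and -0.015 in the same order. The same split over all called probes is not given here, so the counts do not show a shift particular to the members. Among the 16 above the limit, 13 were lower and 3 higher in sample 2, and the furthest apart was the Mature probe of miR529 (log2 difference -0.26). The median absolute difference among these 16 was 0.09. With 1 array per sample, differences between the samples have no replicate check.

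At least 2-fold apart was 1 of the 49 members, the 3'seq probe of miR445a (chromosome 7), beside 2.84% of all probes called on both arrays. It read 36.0 in sample 1 and 16.1 in sample 2 (2.27-fold, log2 difference -1.18) from the 1 spot without an outlier flag. Its other spot read 18.6 and 22.1, in the opposite order, and with both spots the fold was 1.40. Both signals were below the random-sequence limit. With both spots the log2 difference was -0.48, smaller than the gap of 0.95 between the spots of this probe in sample 1.

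The 4 members called only in sample 2 were so called by 1 of 2 spots each. They were the Mature probes of miR417, miR419 and miR426 and the 3'seq probe of miR438. For miR426 the spots in sample 2 read 16.3 and 1.48, and for miR438 14.1 and 1.45, while all their spots in sample 1 read 1.81 or less. The 3'seq probe of miR418 was called only in sample 1, on 1 spot (7.91). In each of these 5 cases the second spot of the same array was not called.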

How the data were processed

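Per the file headers, spots were quantified with version 11.5.1.1 of Agilent Feature Extraction, and the probe design used build IRGSP5; the submitters' processing notes name version 9.1. The deposited intensity is the software's processed signal, corrected for background and spatial trend on each array alone. The log2 values and 1 present or absent call per spot in the authors' deposited table were used only as alternatives, and no source used here tells how they were made.

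Spots with an outlier flag of the feature or its background on either array were left out, a choice widened to background flags after member values had been seen (1504 of the spots other than scanner controls, 6 of 210 member spots). Log2 signals were scaled to the 75th percentile of each array over spots that were not controls, and spots of a probe were averaged. A probe was called where at least 50% of its spots were well above background. Python 3.11.15 and limma 3.58.1 (normexp with offset 50 on median signals, quantile normalization) were used. No hypothesis test was run, since the only group has 2 samples; their number limits the precision. Slide and scan were the same for both arrays.

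The members and lists were chosen with earlier results of these data known. Named with values were members above the random-sequence limit, members at least 2-fold apart, the 3 on each side of the limit and families with a listed role. Members of the remaining families, and those discussed for their spots, were named after their values were seen.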

Additional observations from a re-analysis of the deposited data

How the results depend on the processing

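The count of 49 members called on both arrays was 45 where every spot had to be called (82.3% of all probes), 66 with the positive-and-significant call (91.7%), 50 to 53 on single arrays (83.3% to 85.1%) and 35 of 78 without the miR439 probes (chosen after seeing the data). By the authors' present call it was 19, against 74.5% of all probes that were not controls. The count above the random-sequence limit was 16 or 17 with outlier flags kept, with normexp and on single arrays. Normexp was run on median spot signals (mean signals were not used here). Adding artificial probes to the limit or leaving out miR439 also gave 16, but neither could have changed the count. The highest artificial probe read 22.35 in sample 1 and 23.88 in sample 2, below the limit, and no miR439 probe was above it. With the positive-and-significant call the share of called Mature probes rose to 40% and that of 3'seq probes to 74.3%, the same as for 5'seq probes (74.3%).

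The number of members at least 2-fold apart was 0 with normexp, 0 in the authors' deposited table, 0 above the random-sequence limit and 4 without the filter on dim probes, while over all probes the count went from 961 to 361, 424, 337 and 2374. With outlier-marked spots kept it was again 1, but a different probe: the 5'seq probe of miR439e (3.30-fold, signals 67.8 and 20.9) in place of the miR445a probe. The median log2 difference stayed below 0 in all 7 alternatives, from -0.24 (quantile) to -0.05 (normexp), while the median of all probes ran from 0.03 down to -0.06 (median scaling). No paired analysis was possible because the samples form 1 group. Signals at the floor of the scale have no order.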
